A study of Mus musculus with 4 samples.

Results

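The genes described here encode the heat shock proteins that fold proteins in the cytosol, the J proteins that serve them and the TRiC/CCT chaperonin, together with the regulator Hsf1 and the co-chaperone Bag3. Members were chosen by gene symbol: every Hspa, Hspb, Hspd, Hspe, Hsph, Hsp90a, Dnaja, Dnajb, Dnajc and numbered Cct symbol, plus Tcp1, Hsf1 and Bag3. The choice was made with earlier results of these data known. The endoplasmic reticulum chaperones Hspa5, Dnajb9, Dnajb11 and Dnajc3 were left out. This gave 79 of 24346 symbols. The label "cytosolic" holds for most of them only: 8 members act in mitochondria (Hspa9, Hspd1, Hspe1, Dnaja3, Dnajc11, Dnajc15, Dnajc19 and Dnajc30), and others, such as Hspa13, Dnajb12, Dnajb14, Dnajc1 and Dnajc10, sit in or at the endoplasmic reticulum.

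RNA was sequenced from MC38 cells, a mouse colon carcinoma line grown here without any labelled treatment. Wild-type cells (WT) and cells in which the RNA-binding protein gene Arid5a was knocked out (KO) were each represented by 2 libraries. The labels do not state how the gene was disrupted, whether the knockout line was 1 clone, or whether the replicates were separate cultures. All p-values therefore measure the spread between these libraries, which may be technical. Arid5a itself was at 0.225 and 0.124 FPKM in the WT-labelled libraries and at 2.16 and 1.77 FPKM in the KO-labelled ones. The targeted gene thus went against the labels (log2 change 1.33 ± 0.13 SE; limma, adjusted p = 0.0013), and every direction below is that of the labels as deposited. FPKM stands for fragments counted relative to transcript length and to the number of mapped fragments.

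Heat shock proteins hold unfolded chains and release them in cycles driven by ATP. HSP70 proteins bind short hydrophobic stretches of a chain, J proteins deliver those chains and switch on the HSP70 ATPase, and HSP110 proteins exchange the nucleotide so that the chain is let go. HSP90 proteins act later, on nearly folded clients such as kinases and steroid receptors. TRiC/CCT is a double ring of related subunits that folds actin and tubulin in its chamber, and small heat shock proteins keep unfolded chains soluble without ATP. On protein stress the transcription factor HSF1 forms trimers, binds heat shock elements in promoters and switches on many of these genes, and tumour cells often hold this network at a high level.

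The heat shock element is built from inverted repeats of a short unit. Copies in these promoters are shown because HSF1 is known to reach chaperone genes through such elements. Whether HSF1 binds the copies shown was not tested. RefSeq promoter windows on GRCm38.p6, from 250 bases before to 50 bases after each annotated start, were found for 63 members. They were searched for 3 adjoining units, spelled GAANNTTCNNGAA or TTCNNGAANNTTC, which between them cover both strands. A match was found for 4 members, or 6.35% of the 63, against 0.662% of all 27025 genes with a window. The shorter form of 2 units, GAANNTTC or TTCNNGAA, which lies inside every longer match, was found for 21 members (33.3%) and for 17.0% of all genes. Each match is printed 5′ to 3′ along the strand of its gene, with the units and the bases between them in capitals.
Hspd1: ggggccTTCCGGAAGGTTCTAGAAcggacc
Hspe1: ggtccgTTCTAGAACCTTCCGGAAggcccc
Hsph1: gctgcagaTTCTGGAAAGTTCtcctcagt
Dnajb6: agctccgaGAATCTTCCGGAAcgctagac

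The first pair of lines is 1 stretch read from both strands, chr1:55088053-55088082, since Hspd1 (minus strand) and Hspe1 (plus strand) lie head to head and share their promoter. It holds 2 overlapping matches. The stretch of Hsph1 is chr5:149636280-149636308 (minus strand) and begins after the annotated start. That of Dnajb6 is chr5:29735844-29735872 (plus strand). Counted from the annotated start, the matches of Hspe1 lie at -89 to -72 and those of Hspd1 at -144 to -127. From its 2 annotated starts, the match of Dnajb6 lies at -127 to -115 or at -46 to -34. Of the 4 genes, Hsph1 was called higher in the KO-labelled libraries, Dnajb6 was called lower, and Hspd1 and Hspe1 were not called. The shorter form was also found for Hspa1b, Hspb6, Cct2 and Dnajc27, which were called higher, and for Bag3, Dnaja1, Dnajb4, Hspb8, Cct5, Cct6a and Dnajc10, which were not called. The remaining matches were those of Hspa1a, Hspb1, Hspb3, Dnaja4, Dnajc5g and Cct8l1, whose levels were too low for testing. Of the tested members with a window, the shorter form was found for 5 of 13 called higher, 1 of 6 called lower and 9 of 27 not called. Among all tested genes with a window the share was 13.7%. A match describes the letters only.

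Depth was estimated from the size of 1 fragment in the low values and was 15300000 and 11700000 fragments in the WT-labelled libraries and 10200000 and 11400000 in the KO-labelled ones. It is an estimate: 140 of 208 single-transcript genes lay within 3% of the fitted line. All 10 intestinal epithelial markers examined, among them Epcam, Cdh1 and Cdx2, were below 1 FPKM in every library, so the labelled carcinoma origin is not seen in them, while 6 mesenchymal markers summed to 1577 and 1554 FPKM in the WT-labelled libraries and to 1272 and 1278 FPKM in the KO-labelled ones. Most of that sum was the filament gene Vim, and while Vim, Fn1 and Col3a1 were lower in the KO-labelled libraries, Cdh2 and Col1a1 were higher. Leukocyte markers summed to 18.0 and 21.8 FPKM in the WT-labelled libraries and 14.7 and 15.7 FPKM in the KO-labelled ones, with Cd68 lower (6.14 and 5.80 against 1.03 and 1.67 FPKM) and Cd14 higher (9.18 and 10.1 against 12.0 and 13.8 FPKM) in the latter. The part of these differences in the results below was not tested. Cd3e, Itgam and Adgre1 were listed at 0 in all 4 libraries, and Ptprc did not exceed 0.0854 FPKM. In such bulk samples, fewer cells of a kind and less RNA per cell cannot be told apart.

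The members made up 2.14% to 2.23% of the summed FPKM of each library, and most of that came from a few genes. Hsp90ab1, Hspa8 and Hspd1 held 47.8% to 48.2% of the members' sum. Hsp90ab1 was between the 13th and the 17th most abundant symbol of a library, and Hspa8 between the 25th and the 33rd. Of the 79 members, 60 reached the mean of 1 FPKM over the 4 libraries that was set for testing.

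The chaperone genes moved little and in both directions. Hspa1b and Hsp90aa1, both inducible, the small heat shock protein gene Hspb6 and the mitochondrial HSP70 gene Hspa9 were higher in the KO-labelled libraries. The J protein gene Dnajc16 was lower. Of other inducible genes, Hsph1 was called higher, while Dnajb1, Bag3, Hspd1 and Hspe1 were not called. Of the 60 tested members, 18 were called higher and 8 lower (limma on log2(FPKM + 1), Benjamini-Hochberg adjusted p under 0.05 over all genes tested). Of all 10827 genes tested, 24.4% were called higher and 23.3% lower, or 47.6% in all, against 43.3% of the tested members. The median log2 change of the tested members was 0.032 and that of all tested genes 0.0056, and the median absolute changes were 0.15 and 0.18. No member reached an absolute log2 change of 1, and 2 reached 0.5. The FPKM ranges of the 2 groups did not overlap for 49 of the 60 members and for 77.5% of all tested genes. Of the 26 calls, 12 higher and 3 lower ones held whichever library was left out. Fewer members, and fewer of all genes, were called with any 1 library left out. With quantile normalization 15 members were called higher and 13 lower, while 5100 of all genes were called, 2657 of them higher.

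**Figure D1:**
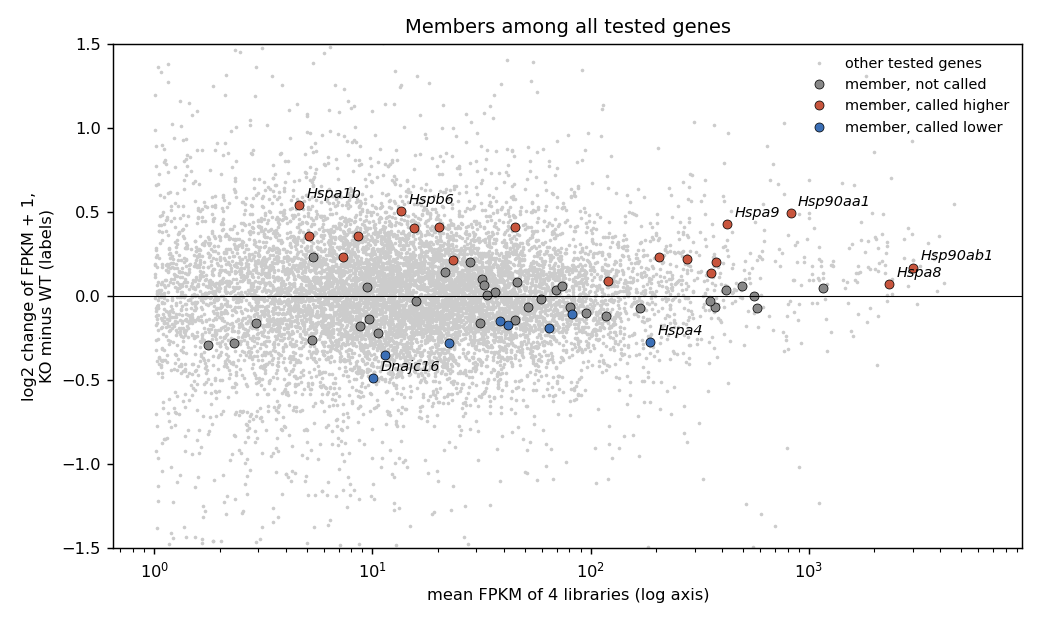
Log2 change (KO-labelled minus WT-labelled libraries, on the FPKM + 1 scale) against mean FPKM over the 4 libraries on a log axis, for all tested genes (grey points) and the 60 tested members (circles, coloured by call). Members lie within 0.54 of 0 on the log2 scale, while 155 other genes lie beyond the plotted range of 1.5. Hsp90aa1 and Hspa9 stand highest among the abundant members.

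Members at high levels were called higher more often than lower, though hardly so with quantile normalization. At a mean of at least 100 FPKM, 9 of 19 members were called higher and 1, Hspa4, lower. Among all 975 genes at that level, 383 were called higher and 263 lower, so abundant genes as a whole leaned the same way. With quantile normalization the lean of the members was nearly gone, with 6 called higher and 5 lower, against 314 and 285 of all genes at that level. At lower levels 9 of 41 tested members were called higher and 7 lower, or 39.0% in all. Of all tested genes at any level, 24.4% were called higher and 23.3% lower, or 47.6% in all.

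HSP90 is encoded in the cytosol by Hsp90aa1, the stress-inducible form, and Hsp90ab1, the constitutive form. Hsp90aa1 (chromosome 12, 110690605 to 110702728, minus strand) was measured at 694 and 679 FPKM in the WT-labelled libraries and at 978 and 953 FPKM in the KO-labelled ones. All values of the KO-labelled libraries were above those of the WT-labelled libraries, and the mean was 1.41 times as high (log2 change 0.49 ± 0.027 SE; limma, adjusted p = 0.0003). Hsp90ab1 (chromosome 17, 45567775 to 45573271, minus strand), the most abundant member, was at 2810.4 and 2854 FPKM against 3181 and 3187 FPKM, again without overlap. The change on the log2 scale was 0.17 ± 0.023 (SE; limma, adjusted p = 0.0037), but with quantile normalization it was -0.056 and not called (adjusted p = 0.289). The inducible form gained on the constitutive one: Hsp90aa1 stood at 0.247 and 0.238 times the level of Hsp90ab1 in the WT-labelled libraries and at 0.308 and 0.299 times in the KO-labelled ones. Such a ratio does not depend on any scaling by 1 factor per library, though quantile normalization can change it. With 2 libraries a group, an exact two-sided permutation test of a single ratio cannot give a p below 0.333. The ratios here and below are therefore given as values only. Their groups do not overlap, but neither did the FPKM ranges of 77.5% of all tested genes. Hspd1 over Hspe1 did not overlap either, though neither gene was called.

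Among the 10 tested HSP70 and HSP110 genes, 4 were called higher and 3 lower, beside 24.4% and 23.3% of all tested genes. Hspa1b, the strongly heat-inducible cytosolic HSP70, stood low in these unheated cells. It was at 3.38 and 3.78 FPKM in the WT-labelled libraries and at 5.86 and 5.45 FPKM in the KO-labelled ones, or about 134, 115, 156 and 162 fragments. The groups were separate, and the log2 change of 0.54 ± 0.083 (SE; limma, adjusted p = 0.0052) was the largest among the tested members on this scale, and with a pseudocount of 5 FPKM it was smaller (0.31) than that of Hsp90aa1 (0.49). Without WT replicate 1 it was 0.48, against 0.51 for Hsp90aa1 and -0.57 for Dnajc16. Its neighbour Hspa1a was at 0.0251 and 0.0983 FPKM against 0 and 0.0338 FPKM, at most about 3 fragments. The longest open reading frames of these genes are 99.4% identical, so reads cannot be assigned surely to either, and the gene pair is best read together. With both summed, the difference was 0.53 ± 0.085 on the log2 scale (SE; limma, adjusted p = 0.0063). Hspa1l, the neighbouring testis-type HSP70 gene whose frame is 82.6% identical to that of Hspa1b, was at 2.59 and 2.65 FPKM against 1.80 and 2.18 FPKM and was not called (adjusted p = 0.0709).

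Hspa8, the constitutive HSP70 that also strips clathrin from vesicles, was at 2289 and 2282 FPKM in the WT-labelled libraries and at 2408 and 2399 FPKM in the KO-labelled ones. Its log2 change of 0.072 ± 0.022 (SE; limma, adjusted p = 0.0451) was small and fragile. Leaving out any 1 of the 4 libraries ended the call (adjusted p between 0.092 and 0.178), and with quantile normalization Hspa8 was called lower (log2 change -0.12, adjusted p = 0.0194). Hspa9, or mortalin, which pulls proteins into the mitochondrial matrix, rose clearly. It stood at 361 and 362 FPKM in the WT-labelled libraries and at 490.2 and 483 FPKM in the KO-labelled ones, a change of 0.43 ± 0.024 on the log2 scale (SE; limma, adjusted p = 0.0003). This made it 1.35 times as high, and the replicates of each group lay close together.

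The HSP110 genes, which act as nucleotide exchange factors for HSP70, parted. Hsph1, the heat-inducible member, rose from 189 and 188 FPKM to 222 and 222 FPKM (log2 change 0.23 ± 0.025 SE; limma, adjusted p = 0.0017). Hspa4 fell from 207 and 205 FPKM to 168 and 173 FPKM (-0.27 ± 0.029; adjusted p = 0.0017). Hspa4 was thus the more abundant of the pair in the WT-labelled libraries and Hsph1 in the KO-labelled ones: Hsph1 over Hspa4 was 0.912 and 0.920 in the former and 1.32 and 1.28 in the latter. The third gene of this branch, Hspa4l, was at 73.7 and 71.1 FPKM against 77.6 and 73.5 FPKM, with overlapping groups and no call (adjusted p = 0.265). Of the remaining HSP70 genes, Hspa13, a microsomal ATPase, fell from 24.9 and 24.3 FPKM to 19.7 and 20.5 FPKM (-0.28 ± 0.044 SE; limma, adjusted p = 0.0055). Hspa14, which works at the ribosome with Dnajc2, was at 85.4 and 85.0 FPKM against 78.9 and 79.0 FPKM (-0.11), and leaving out any 1 of the 4 libraries ended its call (adjusted p between 0.0852 and 0.115). Dnajc2 itself was not called, at 80.3 and 83.8 FPKM against 78.6 and 78.4 FPKM. Hspa2 was at 2.98 and 3.30 FPKM against 2.84 and 2.56 FPKM and was not called either.

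**Figure D2:**
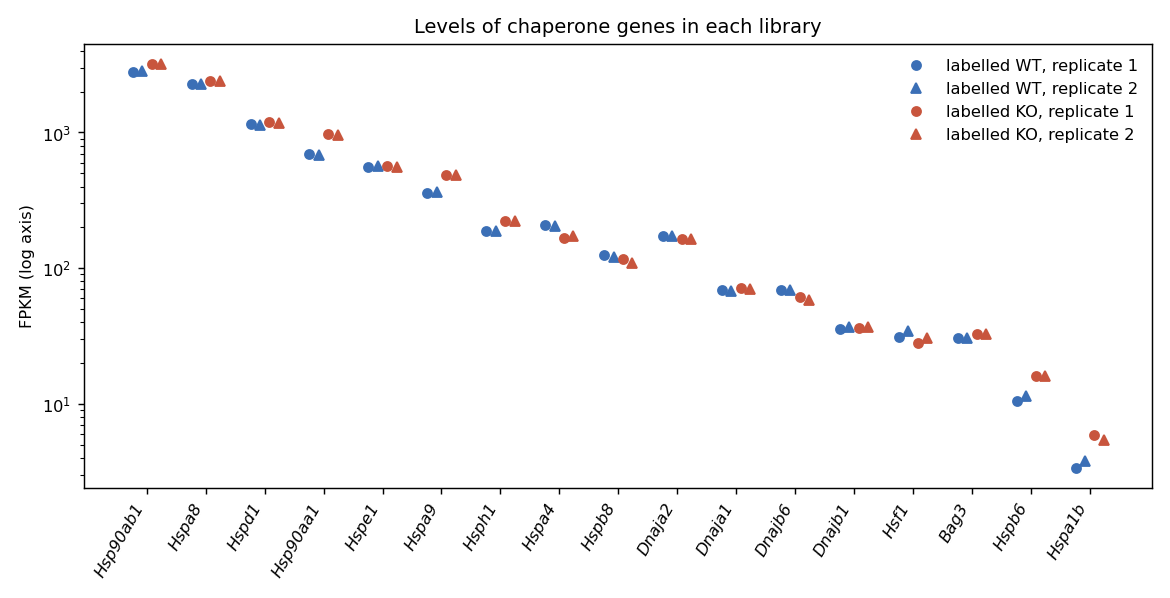
FPKM on a log axis for 17 members in each of the 4 libraries (blue, WT-labelled; red, KO-labelled; circles, replicate 1; triangles, replicate 2). Levels span from 3.38 FPKM (Hspa1b) to 3187 FPKM (Hsp90ab1). The red points stand above the blue ones for Hsp90aa1, Hspa9, Hsph1, Hspb6 and Hspa1b. By less, they also stand above for Hsp90ab1, Hspa8, Hspd1, Dnaja1 and Bag3. They stand below the blue ones for Hspa4, Dnajb6, Hspb8, Dnaja2 and Hsf1, and overlap for Hspe1 and Dnajb1. Of the separated genes, Hspd1, Dnaja1, Bag3, Hspb8, Dnaja2 and Hsf1 were not called.

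The genes of the mitochondrial chaperonin, the barrel that folds imported proteins, were not called. Hspd1 (chromosome 1, 55077835 to 55088243), the barrel subunit, was at 1161 and 1130 FPKM in the WT-labelled libraries and at 1192 and 1172 FPKM in the KO-labelled ones. Its log2 change was 0.046 (95% interval -0.021 to 0.11). Hspe1 (chromosome 1, 55088132 to 55091307), the lid, was at 559.8 and 563 FPKM against 566 and 556 FPKM, a log2 change of -0.0021 (95% interval -0.063 to 0.059). Neither was called by limma, neither had an unadjusted p under 0.05 (0 of 2). With quantile normalization Hspd1 was at -0.052 and Hspe1 at -0.083 (adjusted p = 0.0541), the latter outside its interval above. Hspa9 over Hspd1 was 0.311 and 0.320 in the WT-labelled libraries and 0.411 and 0.412 in the KO-labelled ones.

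The TRiC/CCT ring is assembled from 8 different subunits, 1 of each per ring, and its genes were all abundant, between 253 and 603 FPKM. Of these 8 genes, 3 rose and 0 fell, beside 24.4% and 23.3% of all tested genes. Cct2 was at 259 and 253 FPKM in the WT-labelled libraries and at 302 and 294 FPKM in the KO-labelled ones (log2 change 0.22 ± 0.028 SE; limma, adjusted p = 0.003). Tcp1, the alpha subunit, went from 352 and 349 FPKM to 406 and 403 FPKM (0.21 ± 0.024; adjusted p = 0.0022). Cct8 went from 346 and 333 FPKM to 374 and 372 FPKM (0.14 ± 0.029; adjusted p = 0.0141), and its call was lost without WT replicate 2, KO replicate 1 or KO replicate 2 (adjusted p from 0.0518 to 0.0592) and with quantile normalization (adjusted p = 0.12). Cct3 and Cct6a had log2 changes of 0.059 and 0.039, and Cct4, Cct5 and Cct7 of -0.064, -0.069 and -0.029, none of them called. With quantile normalization Cct4 (-0.13), Cct5 (-0.15) and Cct7 (-0.097) were called lower.

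Within a library, where scaling by 1 factor per library plays no part, the highest and the lowest subunit drew nearer to each other. The summed FPKM of the 8 genes was 3197 and 3145 in the WT-labelled libraries and 3286 and 3275 in the KO-labelled ones. Cct2, the lowest subunit, held 8.09% and 8.04% of that sum in the former and 9.19% and 8.98% in the latter. Cct5, the highest, held 18.9% and 18.5% against 17.4% and 17.0%. The highest subunit was 2.33 and 2.30 times the lowest in the WT-labelled libraries and 1.89 and 1.89 times in the KO-labelled ones. Shares of Tcp1 and Cct8 were higher, and those of Cct4 and Cct7 lower, in both KO-labelled libraries. Cct4 and Cct7 already lay below an equal share in the WT-labelled libraries and so moved away from it. Shares of Cct3 and Cct6a overlapped between the groups. Cct6b, a testis form of Cct6a, stayed below 0.88 FPKM in every library and was not tested.

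**Figure D3:**
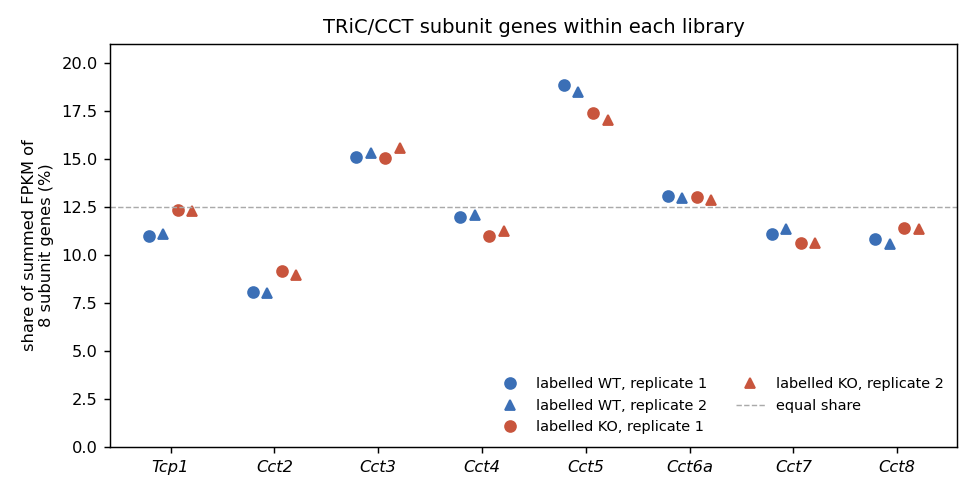
Share of the summed FPKM of the 8 TRiC/CCT subunit genes held by each gene in each library (blue, WT-labelled; red, KO-labelled; circles, replicate 1; triangles, replicate 2); the dashed line marks equal shares. Shares of Tcp1, Cct2 and Cct8 are higher, and those of Cct4, Cct5 and Cct7 lower, in both KO-labelled libraries.

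Small heat shock proteins were sparse. Only 3 of 8 genes reached the level for testing, and Hspb1, which many tumour cells express strongly, was listed at 0 in 3 libraries and at 0.14 FPKM in KO replicate 1. Hspb6, a small heat shock protein known from muscle, rose from 10.5 and 11.5 FPKM to 16.1 and 16.0 FPKM (log2 change 0.51 ± 0.058 SE; limma, adjusted p = 0.0021). Hspb8, the partner of Bag3 in the disposal of misfolded proteins, was the most abundant of the family at 124 and 121 FPKM in the WT-labelled libraries and 117 and 109 FPKM in the KO-labelled ones. Its groups did not overlap, but it was not called (log2 change -0.12 ± 0.040; adjusted p = 0.0613). Hspb11, a cilium transport protein that carries the family's name, was at 47.3 and 47.9 FPKM against 44.9 and 41.2 FPKM and was not called (adjusted p = 0.062).

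The regulators were not called, apart from the alternatives given here. Hsf1, the master regulator of the heat shock response, was at 31.4 and 34.5 FPKM in the WT-labelled libraries and at 28.0 and 30.8 FPKM in the KO-labelled ones (log2 change -0.16, 95% interval -0.33 to 0.013; limma, adjusted p = 0.109). With a replicate block Hsf1 was called lower (adjusted p = 0.0334). Bag3, which links HSP70 to small heat shock proteins and autophagy and is itself an HSF1 target, was at 30.6 and 30.5 FPKM against 32.9 and 32.8 FPKM. Its groups did not overlap, and its log2 change was 0.10 ± 0.035 (adjusted p = 0.0605); scaling by the upper quartile brought it just past the threshold (0.11; adjusted p = 0.049). Dnajb1, the J protein most often read as an HSF1 target, was at 35.6 and 36.6 FPKM against 36.5 and 37.1 FPKM with overlapping groups (log2 change 0.027, 95% interval -0.065 to 0.12; adjusted p = 0.572). Of the inducible genes, Hspa1b, Hsp90aa1 and Hsph1 rose, while Dnajb1, Bag3, Hspd1 and Hspe1 were not called and Hspb1 was barely detected.

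J proteins of class A, which fold general clients with HSP70, were not called. Dnaja2 was the most abundant at 173 and 172 FPKM in the WT-labelled libraries and 164 and 163.1 FPKM in the KO-labelled ones (log2 change -0.073 ± 0.025 SE; limma, adjusted p = 0.0649). Dnaja1 was at 69.2 and 68.4 FPKM against 71.2 and 70.02 FPKM (0.038; adjusted p = 0.346). Mitochondrial Dnaja3 was at 32.5 and 31.2 FPKM against 32.4 and 34.3 FPKM, with overlapping groups. Of these 3 genes 0 were called by limma, and 1 had an unadjusted p under 0.05. The remaining member, Dnaja4, was listed at 0 in both WT-labelled libraries and at 0.486 and 0.626 FPKM in the KO-labelled ones, about 3 to 20 fragments depending on the transcript. It fell below the level for testing, and without that filter it was called higher (log2 change 0.64 ± 0.060 SE; limma, adjusted p = 0.0042), a fitted value that depends on the pseudocount since the WT-labelled libraries are at 0.

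Among 7 tested class B genes, 1 rose and 1 fell, beside 24.4% and 23.3% of all tested genes. Dnajb2, which hands ubiquitylated clients to the proteasome, rose from 16.7 and 17.7 FPKM to 23.8 and 22.5 FPKM (log2 change 0.41 ± 0.053 SE; limma, adjusted p = 0.003). Dnajb6, a suppressor of aggregation of polyglutamine proteins, fell from 69.5 and 68.6 FPKM to 61.8 and 58.8 FPKM (-0.19 ± 0.037; adjusted p = 0.0111), a call lost without WT replicate 1 (adjusted p = 0.0562). Dnajb4, Dnajb12 and Dnajb14 had overlapping groups, like Dnajb1. Dnajb5, near the lower limit of the test, was at 2.199 and 1.86 FPKM against 1.71 and 1.25 FPKM and was not called.

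Class C, the mixed class of J proteins with specialised tasks, had 7 of 23 tested genes called higher and 4 lower, beside 24.4% and 23.3% of all genes. Dnajc5, the cysteine string protein of secretory vesicles, rose from 39.0 and 38.0 FPKM to 50.8 and 52.2 FPKM (log2 change 0.41 ± 0.036 SE; limma, adjusted p = 0.001). Dnajc17, a splicing-associated J protein, rose from 13.3 and 13.2 FPKM to 18.7 and 17.1 FPKM (0.41 ± 0.059; adjusted p = 0.0044). Dnajc24, needed to build the diphthamide residue of elongation factor 2, rose from 7.62 and 7.29 FPKM to 9.72 and 9.90 FPKM (0.36). Dnajc27, a small GTPase with a J domain, went from 4.27 and 4.48 FPKM to 6.17 and 5.61 FPKM (0.36), and its call held only when KO replicate 2 was the library omitted (adjusted p between 0.0521 and 0.0706 with WT replicate 1, WT replicate 2 or KO replicate 1 omitted). Dnajc13, an endosomal protein, rose by 0.21, a call that ended when WT replicate 1 was omitted (adjusted p = 0.0539). Dnajc1 (0.23) and Dnajc8 (0.089) were called higher with all 4 libraries but with none of them left out (adjusted p from 0.0583 to 0.169 and from 0.0879 to 0.175).

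Dnajc5, Dnajc17, Dnajc24, Dnajc1, Dnajc10, Hspa14 and Hspa12b lie on chromosome 2, whose genes were higher as a group in the KO-labelled libraries. Of 832 tested genes of chromosome 2, 456 were called higher and 78 lower, with a median log2 change of 0.23, against a median of -0.012 for 9577 genes of other chromosomes. Of the 6 tested members on chromosome 2, 4 were called higher and 1, Hspa14, lower, with a median of 0.29. The part of that chromosome-wide difference in these calls was not tested. Without the members on chromosome 2, 14 of 54 tested members were called higher and 7 lower, with a median of 0.0030. Of the 9577 genes of other chromosomes, 2101 were called higher and 2337 lower.

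The class C genes that fell included Dnajc16, a membrane-anchored J protein. Its level dropped from 11.2 and 12.6 FPKM to 7.79 and 8.67 FPKM (log2 change -0.49 ± 0.082 SE; limma, adjusted p = 0.0072). Dnajc4 fell from 11.9 and 14.0 FPKM to 10.8 and 9.14 FPKM (-0.35), but the call ended with WT replicate 2 omitted (adjusted p = 0.17) or KO replicate 2 (0.139). The others were mitochondrial. Dnajc11, of the inner membrane organising complex, went from 45.2 and 44.0 FPKM to 39.8 and 39.1 FPKM (-0.17), with no call without WT replicate 1 (adjusted p = 0.0751) or KO replicate 2 (0.053). Dnajc19, of the protein import motor in which Hspa9 works, went from 39.7 and 40.9 FPKM to 35.4 and 37.2 FPKM (-0.15), with a call only when KO replicate 2 was the library left out (adjusted p from 0.085 to 0.155 with the other libraries left out). Dnajc15, its paralog, was at 52.4 and 53.8 FPKM against 51.9 and 49.5 FPKM and was not called. Hspa9 was therefore the 1 of 8 mitochondrial members that rose, with 2 falling, beside 24.4% and 23.3% of all tested genes.

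**Figure D4:**
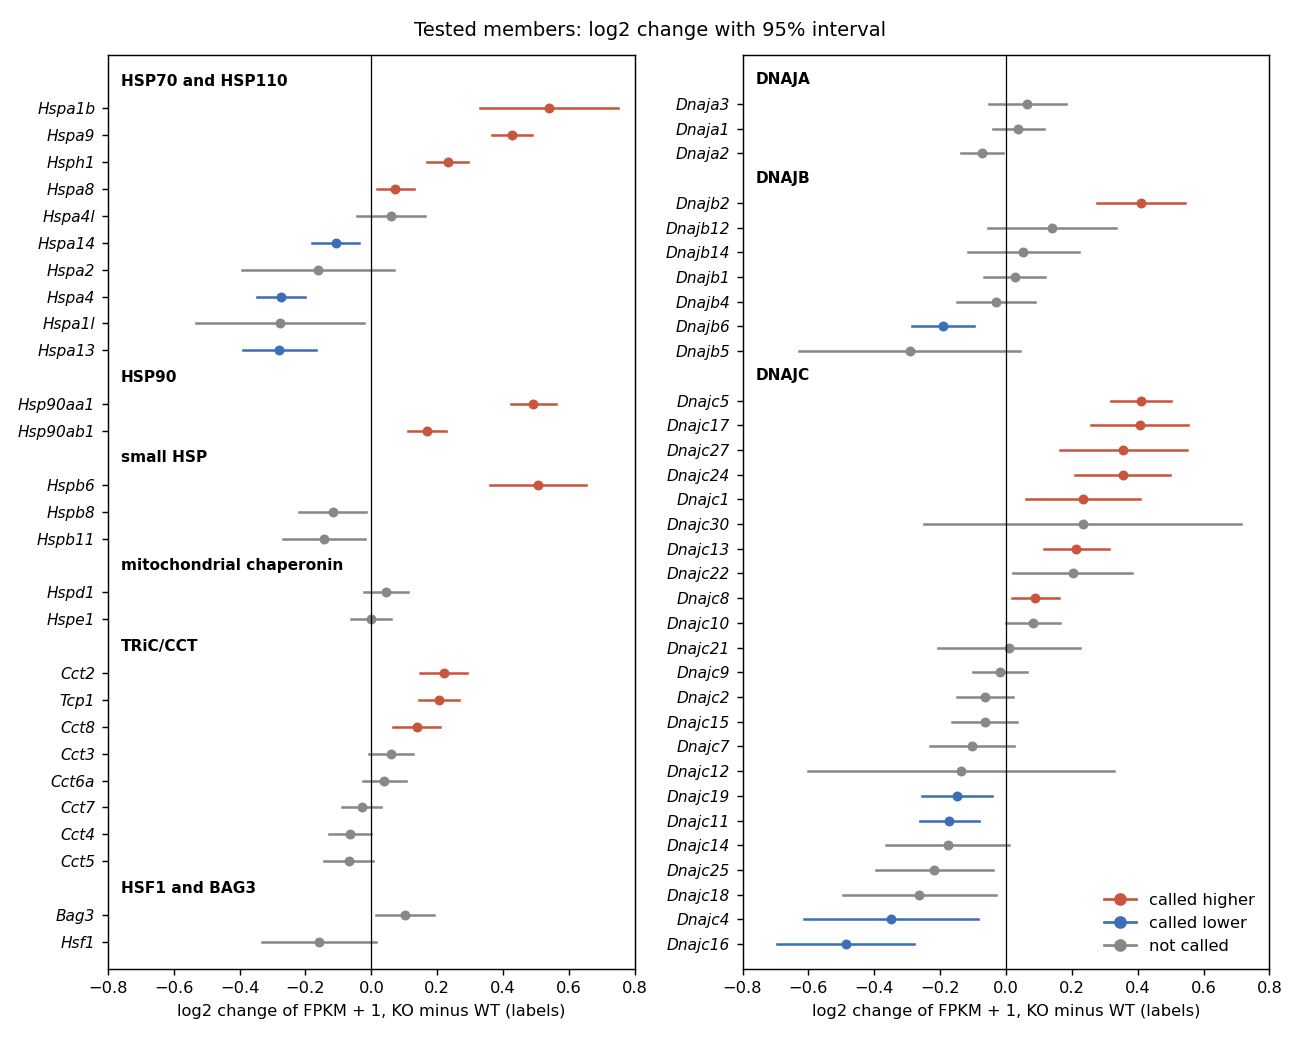
Log2 change on the FPKM + 1 scale (KO-labelled minus WT-labelled libraries) for each of the 60 tested members, by family; points are limma estimates, bars their 95% intervals, and colours the call at an adjusted p under 0.05. The HSP90 genes lie to the right of 0 (Hsp90ab1 at -0.056 with quantile normalization), the HSP70 and HSP110 genes and class C on both sides, and the mitochondrial chaperonin and class A genes near 0.

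The 19 members below the level for testing included tissue-restricted genes. Dnajb3, Dnajb8, Dnajc5b, Dnajc5g and Hspb9 were listed at 0 in all 4 libraries. Cct8l1, Dnajb7, Dnajb13, Dnajc28, Hspa12a, Hspa12b, Hspb2, Hspb3 and Hspb7 did not exceed 0.5003 FPKM in any library. Dnajc6, an auxilin that uncoats vesicles with HSP70, was at 0.210 and 0.431 FPKM in the WT-labelled libraries and 0.0790 and 0.0711 FPKM in the KO-labelled ones. It was not called without the filter either (limma, adjusted p = 0.0766).

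Partners of the chaperones were read from a list of 54 co-chaperones and related genes, of which 53 were in the tables and 50 were tested. Of these, 16 rose and 12 fell, against the same 24.4% and 23.3% of all genes. HSP90 co-chaperones went both ways, with 4 rising and 7 falling of 18, beside the higher calls of Hsp90aa1 and, without quantile normalization, Hsp90ab1. The prolyl isomerase Ppid fell from 165 and 159 FPKM to 108 and 111 FPKM (log2 change -0.56 ± 0.035 SE; limma, adjusted p = 0.0004), Nudc from 312 and 314 FPKM to 258 and 255 FPKM (-0.29), and Cdc37, which brings kinases to HSP90, from 111 and 107 FPKM to 93.4 and 92.4 FPKM (-0.23). The isomerase Fkbp5 rose by 0.29 and p23, encoded by Ptges3, by 0.15, and Stip1, which links HSP70 to HSP90, by 0.11, the last with a call in only 1 of the 4 fits that left out a library (adjusted p up to 0.126). With any 1 library left out, fewer genes of the list were called in either direction, and fewer of all genes.

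Among HSP70 partners 4 of 10 rose and 0 fell, beside 24.4% and 23.3% of all tested genes. The nucleotide exchange factors Bag2 (0.36), Sil1 (0.40) and Bag1 (0.22) and the HSP70-interacting St13 (0.18) were higher, and the call of Sil1 (limma, adjusted p = 0.0495) rested on KO-labelled values of 9.45 and 12.504 FPKM, which lay far apart, and held in only 1 of the 4 fits that left out a library (adjusted p up to 0.16). Of 9 prefoldin and CCT partners, 3 rose and 3 fell, beside the same shares of all tested genes. The higher calls were Pdcl and Pfdn4 (0.14), both on chromosome 2, and Vbp1 (0.12). Those of Pfdn4 and Vbp1, and the lower call of Pfdn5 (-0.19), did not hold in every fit that left out a library. Pfdn6, a prefoldin subunit that passes actin and tubulin to TRiC/CCT, fell from 226 and 227 FPKM to 158 and 135 FPKM (-0.63 ± 0.073 SE; adjusted p = 0.0022), while the CCT cofactor Pdcl, on chromosome 2, rose from 14.9 and 14.4 FPKM to 21.3 and 20.7 FPKM (0.49). Its paralog Pdcl3 fell from 47.7 and 46.4 FPKM to 41.2 and 38.7 FPKM (-0.23 ± 0.044; adjusted p = 0.0101), a call that held in 3 of the 4 fits that left out a library (adjusted p up to 0.0542). Hsbp1, a small protein that binds HSF1 trimers and limits their activity, fell from 153 and 151 FPKM to 106 and 112 FPKM (-0.48 ± 0.035 SE; limma, adjusted p = 0.0006). Of 8 mitochondrial partners, 2 rose, 1 fell and 5 were not called, beside 24.4% and 23.3% of all tested genes called higher and lower. In mitochondria the protease Lonp1 rose from 78.9 and 76.5 FPKM to 112 and 109 FPKM (0.50 ± 0.033; adjusted p = 0.0005) and the disaggregase Clpb by 0.35, beside the rise of Hspa9, while the HSP90 paralog Trap1 fell by 0.16 on the log2 scale, a call that held in only 1 of those 4 fits (adjusted p up to 0.0811). The collagen chaperone Serpinh1, a classical heat shock gene of the endoplasmic reticulum, rose by 0.31.

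The endoplasmic reticulum counterparts, which are not members, were higher relative to their cytosolic forms in the KO-labelled libraries. Hspa5 (BiP) was at 509 and 499 FPKM in the WT-labelled libraries and 748 and 726 FPKM in the KO-labelled ones (log2 change 0.55 ± 0.028 SE; limma, adjusted p = 0.0002), and Hsp90b1 at 510.3 and 513 FPKM against 833 and 817 FPKM (0.69 ± 0.024; adjusted p = 0.0001). Hspa5 over Hspa8 was 0.223 and 0.218 in the WT-labelled libraries and 0.311 and 0.303 in the KO-labelled ones, and Hsp90b1 over Hsp90ab1 was 0.182 and 0.180 against 0.262 and 0.256. Hspa5 lies on chromosome 2, and the part of the difference of that chromosome in its value was not tested. Of the reticulum J proteins, Dnajb9 (-0.0053) and Dnajb11 (-0.092) were not called, and Dnajc3, at 31.0 and 30.7 FPKM against 28.5 and 27.4 FPKM, was called lower (-0.14 ± 0.040 SE; limma, adjusted p = 0.0371). The call of Dnajc3 was lost with any 1 library omitted (adjusted p up to 0.145).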

How the data were processed

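Stranded TruSeq mRNA libraries were made from RNeasy-purified RNA, per the labels' protocols. Cufflinks 2.2.1, SAMtools 0.1.19, TopHat2 2.0.13, Bowtie2 2.2.3 and the mm10 build stand in the submitters' processing notes, while their settings, the annotation and the use of strand are not given in the sources used here. Each deposited table holds FPKM values per gene symbol for 1 library, which correct for length and depth but not for shifts caused by abundant transcripts. No label names the unit of the deposited values; FPKM is inferred from the use of Cufflinks and from the values.

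The KPC cells named in the series' design were not analysed here. The libraries labelled KO (n = 2) were compared with those labelled WT (n = 2) with limma 3.58.1 in R 4.3.3 on log2(FPKM + 1), keeping genes whose mean was 1 FPKM or more, with lmFit and trended eBayes and no block. Tests were two-sided, and a call meant an adjusted p under 0.05 (Benjamini-Hochberg) over all 10827 tested genes. Changes of low genes are understated on this scale. The code was tested on simulated data. Gene positions are those of GENCODE M21 (GRCm38, the assembly of mm10), and all 79 members matched 1 gene. Promoters came from RefSeq, with no window for Hspa8, Hspa9, Hspa13, Hsp90aa1, Hsp90ab1, Hspb2, Hsf1, Cct4, Dnajc2, Dnajc5, Dnajc5b, Dnajc11, Dnajc12, Dnajc18, Dnajc22 and Dnajc30. Identity was computed over global alignments of the longest open reading frames.

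The members, lists and tests were chosen with earlier results of these data known. Values in every library are given for 16 textbook members and for up to 4 called members of each family with the largest changes; other members are named with values as needed. Of the co-chaperone list, the 5 called genes with the largest changes in each direction were to be named. Cdc37, Fkbp5, Ptges3, Stip1, Bag1, St13, Trap1, Serpinh1, Pfdn4, Pfdn5 and Vbp1 were added after their values were seen. Python 3.11.15 with pandas 2.3.3 and matplotlib 3.10.9 served for tables and figures.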

Additional observations from a re-analysis of the deposited data

How the results depend on the processing

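Alternatives covered the pseudocount, the filter, the scaling between libraries, the moderation of variances, a replicate block and the omission of each library. Of 375 recomputed log2 changes of 25 named members, 346 kept direction and call, 17 lost the call, 5 gained it and 7 changed sign; the causes were not tested. With quantile normalization 13 members were called lower, the members' median log2 change was -0.024, and Hspa8 (-0.12), Hsp90ab1 (-0.056) and Hspd1 (-0.052) changed sign. Of all tested genes 5100 were called in that setting, with a median of 0.011. Hspe1 was -0.083 with quantile normalization, 0.0045 when scaled by the library median, 0.0060 by the upper quartile, and -0.014 to 0.010 with 1 library left out. Without the mean-variance trend, 9 genes of the co-chaperone list were called higher and 7 lower, while 4760 of all genes were called. With 1 library left out, 4 to 8 members were called lower, 10 to 14 co-chaperones higher and 6 to 10 lower, and 3372 to 4092 of all genes were called.

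The replicate numbers are shared by the groups, but nothing in the labels pairs the libraries, and the deviations of same-numbered libraries correlated at 0.138 across genes. With a replicate block, 15 members were called higher and 10 lower, and 4673 of all genes were called. Hspa8, Dnajc1, Dnajc4 and Dnajc8 were then not called, and Hsf1, Hspb8 and Dnajc18 were called lower. With 2 libraries a group, intervals of members near 1 FPKM are wide, and no ratio of means is given against a group listed at 0. The log2 change given for Dnaja4 without the filter depends on the pseudocount.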
